A study of Mus musculus with 4 samples.

Results

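Heat shock chaperones of the cytosol and mitochondria were examined for binding of phosphorylated CREB in the mouse pre-osteoblast line MC3T3-E1. The set of 40 genes was chosen by name, with earlier results of these data known. It comprised 2 heat shock factors, 6 Hsp70 and 3 Hsp110 proteins, 8 J proteins, 4 BAG proteins and 3 Hsp90 proteins. The others were 3 cochaperones, 7 subunits of the cytosolic chaperonin TRiC, 2 mitochondrial chaperonin subunits and 2 small heat shock proteins. All 40 were found among the 22225 protein-coding gene symbols of the mm9 annotation. The groups were cells given 100 nM forskolin for 1 h, an activator of adenylyl cyclase that raises cAMP, and cells given DMSO vehicle for 1 h. Each group had 2 libraries, described as biological replicates of this single cell line, precipitated with an antibody against the CREB serine that protein kinase A phosphorylates. The peak lists held 25566 and 19371 peaks in the forskolin libraries, against 14686 and 10180 peaks in the vehicle libraries.

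Many chaperones bind unfolded proteins and release them in cycles driven by ATP. Hsp70 proteins receive substrates from J proteins and let them go with the help of Hsp110 and BAG exchange factors, Hsp90 proteins act late in the folding of kinases and receptors, and chaperonins enclose proteins such as actin and tubulin in a chamber. The heat shock factor HSF1 raises transcription of many of these genes under stress through heat shock elements, which are repeats of GAA in alternating orientation. CREB binds the cAMP response element (CRE), and many housekeeping promoters carry a CRE that is occupied without stimulation.

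Peaks that shared at least 1 bp were merged, which gave 28335 regions. A region called in both forskolin libraries and neither vehicle library is termed forskolin-only, and the reverse vehicle-only. Distances run from the centre of a region to the nearest annotated start of any transcript of the gene, and negative values are upstream. Scores are the authors' deposited values, their scale is not stated, and they served only to rank peaks within a list (percentile, with the highest score near 100). Between 98.75% and 100.00% of scores below 50 were multiples of a step specific to the list. If 1 step is 1 read, forskolin replicate 2 had 0.347 times the depth of forskolin replicate 1, and the vehicle libraries had 1.03 and 1.06 times. Of the osteoblast lineage markers, 7 of 7 had at least 1 region (of whatever class) within 10 kb, among them Runx2, Sp7 and Alpl. Of the markers of other cell types, 3 of 8 had one (Adipoq, Cd68 and Col2a1), beside 55.2% of all genes.

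Phospho-CREB was called at the promoters of most chaperone genes under both treatments. Regions present in all 4 libraries lay within 1 kb of a start for 34 of the 40 members (85%), beside 30.4% of all genes. Within 10 kb the count was 36 members (beside 37.5% of genes) and within 100 kb it was 39 (beside 67.1%). Counting a region of any class, 37 members had one within 1 kb (beside 44.5%), 39 within 10 kb and 40 within 100 kb (beside 79.5%). The promoter regions were close to the starts, at a median of 85.5 bp, and for 26 of the 34 members the centre was within 200 bp. Hspd1 and Hspe1 shared a region, so the 34 members had 33 promoter regions. Of these, 14 had a mean percentile over the libraries of 90 or more (42.4%, beside 19.8% of all 5984 promoter regions called in every library), and 5 were below 50.

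**Figure D1:**
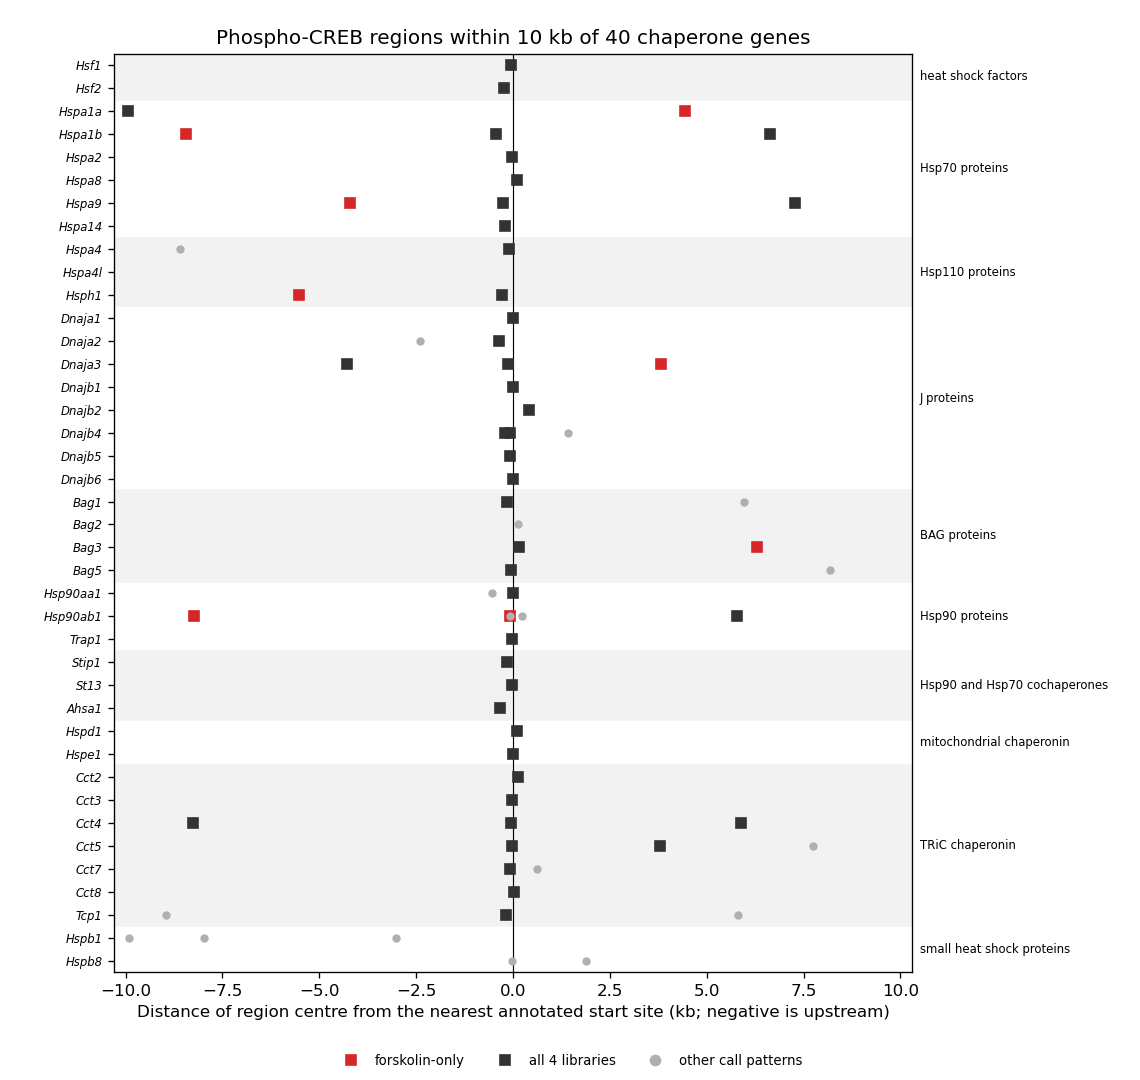
Regions within 10 kb of the 40 members, grouped by role. The x axis gives the distance from the nearest start in kb, red squares are forskolin-only regions, black squares regions of all 4 libraries and grey circles other call patterns. Black squares stand near the start of 34 members, and all but 1 of the forskolin-only regions lie several kb away.

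Trap1, the mitochondrial Hsp90, had the highest-ranked promoter region of the set (chr16:4077705-4078019, in an intron, -35 bp from an internal start and 548 bp from the gene's 5′ end). Its percentiles were 99.5 and 99.7 in the forskolin libraries, against 99.1 and 99.1 in the vehicle libraries. Cct4, a TRiC subunit, and St13, the Hsp70 cochaperone Hip, followed. Cct4 (chr11:22890421-22890736, exon, -47 bp) stood at 98.9 and 98.5 in forskolin libraries, against 98.3 and 97.7 in vehicle libraries. St13 (chr15:81230321-81230650, exon, -13 bp) stood at 98.6 and 99.0 in forskolin libraries, against 97.9 and 97.8 in vehicle libraries. Trap1, Cct4 and St13 were also the 3 members whose promoter region held a full CRE, TGACGTCA, within 100 bp of its centre.

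Hspa4, an Hsp110 exchange factor, and Hspa14, a ribosome-associated Hsp70, completed the 5 highest. Hspa4 (chr11:53113887-53114245, intergenic, -107 bp) had percentiles of 99.1 and 98.2 in forskolin libraries, against 97.3 and 97.2 in vehicle libraries. Hspa14 (chr2:3430129-3430454, intergenic, -206 bp) had 97.3 and 98.3 in forskolin libraries, against 97.4 and 97.1 in vehicle libraries. Neither held a full CRE, and both held its core, TGACG. The Trap1 and Hspa4 promoters are printed because they set a full CRE beside a pair of separate cores at like rank. Each runs 5′ to 3′ on the gene's strand in build mm9, with the CRE letters in capitals (Trap1 chr16:4077825-4077882, minus strand, and Hspa4 chr11:53114008-53114075, minus strand).
Trap1: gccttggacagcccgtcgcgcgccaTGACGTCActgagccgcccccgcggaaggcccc
Hspa4: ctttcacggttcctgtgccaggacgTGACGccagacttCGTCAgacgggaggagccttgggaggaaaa

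Over the whole set, 18 of the 33 promoter regions (54.5%) held a CRE core within 100 bp of the centre and 3 (9.09%) a full CRE, beside 42.8% and 7.32% of all promoter regions. The core is part of the full CRE, so the first count holds the second. The median of the mean percentile was 98.3 for the 3 chaperone regions with a full CRE, 90.6 for the 15 with a core alone and 73.0 for the 15 with neither. Over all promoter regions these medians were 92.7 (438 regions), 82.7 (2122) and 61.9 (3424), in the same order. CCAAT was found in 12 chaperone regions (36.4%, beside 35%), the NRF1 site in 1, at the TRiC subunit Cct5 (3.03%, beside 1.34%), and the AP-1 site TGAGTCA in 0 (beside 2.34%).

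Heat shock elements were found in 6 of the 33 chaperone promoter regions (18.2%), and in 13 of all 5984 promoter regions (0.217%). The motif, sought in the same window and in either orientation, was GAA, TTC and GAA with 2 free bases in each gap. Its 6 chaperone regions were those of Hspa8, the constitutive Hsp70, of Hspd1 and Hspe1, the mitochondrial Hsp60 and its lid Hsp10, of the J proteins Dnaja1 and Dnajb6, of Cct4, and of Stip1, the adaptor Hop that links Hsp70 to Hsp90. All 6 also held a CRE core, as did 3 of the 7 regions of other genes. Between the element and the nearest core lay 13 bases at Hspa8, 35 at Hspd1 and Hspe1, 38 at Stip1, 46 at Dnaja1, 62 at Cct4 and 103 at Dnajb6. Within 50 bp of the centre the element was found in 1 region. A match describes letters and not a bound site, and the shares were not tested.

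Promoters with both motifs are printed to show this arrangement, 5′ to 3′ on the gene's strand in build mm9, with heat shock elements and CRE cores in capitals. They are chr1:55144883-55144980 (Hspe1, plus strand), chr4:40669496-40669599 (Dnaja1, plus strand), chr5:30062377-30062527 (Dnajb6, plus strand) and chr19:7114680-7114801 (Stip1, minus strand). In the Hspe1 stretch 2 overlapping elements form 1 block of capitals.
Hspe1: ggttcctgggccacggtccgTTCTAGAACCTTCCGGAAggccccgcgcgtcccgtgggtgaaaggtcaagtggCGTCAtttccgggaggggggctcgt
Dnaja1: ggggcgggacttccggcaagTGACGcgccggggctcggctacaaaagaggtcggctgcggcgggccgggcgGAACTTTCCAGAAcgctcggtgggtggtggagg
Dnajb6: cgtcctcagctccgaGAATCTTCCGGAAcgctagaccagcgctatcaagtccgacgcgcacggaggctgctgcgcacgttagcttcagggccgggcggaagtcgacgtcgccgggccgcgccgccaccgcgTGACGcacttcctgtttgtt
Stip1: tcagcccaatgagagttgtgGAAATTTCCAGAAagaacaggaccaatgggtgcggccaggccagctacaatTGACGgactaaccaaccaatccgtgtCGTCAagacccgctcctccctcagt

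**Figure D2:**
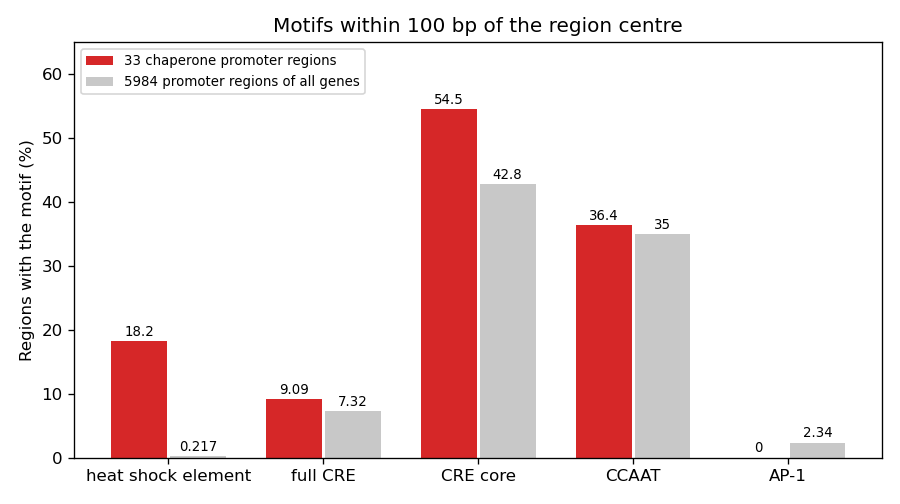
Share of regions (percent, y axis) with each motif within 100 bp of the centre, for the 33 chaperone promoter regions (red bars) and all 5984 promoter regions of all 4 libraries (grey bars). The heat shock element is found in 18.2% of the chaperone regions and 0.217% of all, and CCAAT in 36.4% and 35%.

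The same motifs were sought in RefSeq promoters of build GRCm38.p6, which run from 250 bases before to 50 after each start, where 33 of the 40 members were matched by symbol. Hspa8, Hspa9, Hsp90aa1, Hsp90ab1, Cct4, St13 and Hsf1 had no match and were not searched there. These include Cct4 and St13, whose phospho-CREB regions held a full CRE, and Hspa8 and Cct4, whose regions held a heat shock element. Among the matched members, the heat shock element was present in Hspd1, Hspe1, Hsph1 and Dnajb6 (12.1% of the 33, beside 0.662% of 27025 genes). The CRE core was present in 19 members (57.6%, beside 23%) and the full CRE in Trap1 (3.03%, beside 2.03%). Hsph1, an Hsp110 exchange factor, thus held the element near its start, while the window around its phospho-CREB region at -274 bp held none.

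Heat shock factors had promoter regions of middle or low rank. Hsf1 (chr15:76307559-76308059, intergenic, -56 bp), the main stress-activated factor, stood at 77.5 and 67.5 in forskolin libraries, against 83.4 and 60.5 in vehicle libraries. Hsf2 (chr10:57205786-57206131, intron, -232 bp), a second factor of the family, stood at 37.2 and 53.3 in forskolin libraries, against 26.6 and 13.3 in vehicle libraries. Ranked among the regions that every library called, Hsf2 stood at 4.3 and 28.9 in forskolin libraries, against 10.1 and 10.9 in vehicle libraries, so the treatments overlapped. Neither region held a CRE core, and both held a CCAAT.

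Among the Hsp70 proteins, Hspa8 ranked high and the stress-inducible Hspa1b lowest of all members. The region of Hspa8 (chr9:40608966-40609352, exon, 92 bp) had percentiles of 94.8 and 95.5 in forskolin libraries, against 93.9 and 87.7 in vehicle libraries. That of Hspa1b (chr17:35096302-35096939, intergenic, -438 bp) had 31.0 and 17.1 in forskolin libraries, against 21.9 and 18.4 in vehicle libraries. Its near-copy Hspa1a, also stress-inducible, had no peak within 1 kb in any library, and its nearest region of all 4 libraries, -9942 bp away, lay within 1 kb of Lsm2. These genes are 98% identical over the 2000 bases after the start, 84% over the 200 bases before it and 62.3% over the 300 bases before that, where the Hspa1b region is centred. The handling of reads with several matches is not stated, and its part in the absence of peaks at Hspa1a was not tested. Hspa2, a testis-enriched Hsp70, had its region at -36 bp with 79.0 and 79.0 in forskolin libraries, against 77.0 and 69.1 in vehicle libraries. Hspa9, the mitochondrial Hsp70 mortalin, had one at -268 bp with 86.1 and 86.4 in forskolin libraries, against 92.5 and 63.6 in vehicle libraries, with its vehicle replicates far apart. When peaks had to share at least 50% of the shorter to be merged, Hspa9 had no region of all 4 libraries within 1 kb.

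All 8 J proteins, which deliver substrates to Hsp70, had a promoter region called in every library, with mean percentiles from 37.3 (Dnaja2) to 95.1 (Dnajb6). Dnajb1, the stress-inducible Hsp40, had its region at -2 bp (chr8:86131915-86132228, intergenic) with 95.3 and 94.2 in forskolin libraries, against 93.5 and 93.0 in vehicle libraries. Dnaja2 (chr8:88079341-88079699, intergenic, -350 bp) had 55.9 and 50.5 in forskolin libraries, against 41.6 and 1.1 in vehicle libraries. Vehicle replicate 2 thus stood far below the other libraries there. All 7 TRiC subunits were called as well, with mean percentiles from 71.3 (Cct8) to 98.3 (Cct4) and Cct2, Cct3, Cct5, Cct7 and Tcp1 between them. The region shared by Hspd1 and Hspe1 (chr1:55144775-55145180, exon, 109 bp and 2 bp from their starts) had 93.4 and 95.3 in forskolin libraries, against 92.8 and 81.9 in vehicle libraries.

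Cochaperones of Hsp90 and Hsp70 ranked high, and the cytosolic Hsp90 genes lower or in pieces. Mean percentiles were 98.3 for St13, 92.7 for Ahsa1, the activator of the Hsp90 ATPase, and 90.7 for Stip1. Hsp90aa1, the inducible Hsp90, had its region at an internal start 6473 bp from the gene's 5′ end (chr12:111934285-111934644, exon), at 48.1 and 27.2 in forskolin libraries, against 31.1 and 3.5 in vehicle libraries. Near the 5′ end of Hsp90aa1, at -534 bp, a region was called at 36.1 in forskolin replicate 1, against 43.4 and 34.5 in the vehicle libraries.

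Hsp90ab1, the constitutive Hsp90, had 3 adjoining regions in place of 1. That at -84 bp (chr17:45710123-45710485, intergenic) held both TGACGTCA and TGAGTCA, and was called at 85.3 and 86.8 in the forskolin libraries and at 85.2 in vehicle replicate 2. Vehicle replicate 1 had its peak at chr17:45709816-45710116, at 88.0. Both forskolin libraries had a further region in an intron 626 bp from the 5′ end (chr17:45709406-45709782), at 74.3 and 71.8. Joining peaks within 500 bp made these 1 region of all 4 libraries, so the promoter was called in every library.

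The other 5 members without such a promoter region were Hspa1a, Hspa4l, Hspb1, Hspb8 and Bag2. Hspa4l, an Hsp110 protein enriched in testis, was the 1 member with 0 regions within 10 kb, and its nearest lay 16008 bp downstream in all 4 libraries. Hspb1, the small heat shock protein Hsp27, had its nearest region at -3026 bp (chr5:136360585-136360941, intergenic), at 85.1 and 70.4 in forskolin libraries, against 1.1 in vehicle replicate 1 and no call in vehicle replicate 2. This Hspb1 region held a CRE core with an AP-1 site. Hspb8, the small chaperone that pairs with BAG3, had a peak at -29 bp at 32.0 in forskolin replicate 2 alone. An intronic Hspb8 region 1885 bp from the start stood at 49.0 and 44.1 in forskolin libraries, against 14.4 in vehicle replicate 1 and no call in vehicle replicate 2. Bag2, an inhibitor of the ubiquitin ligase CHIP, had a region at 117 bp (chr1:33814289-33814754, exon) at 69.0 and 3.0 in forskolin libraries, against 35.6 in vehicle replicate 1 and no call in vehicle replicate 2. At the regions of Hspb1 (-3026 bp), Hspb8 (1885 bp) and Bag2, vehicle replicate 2, the shortest list, was the library without the call. Nearest to the 1 kb limit were Dnajb2 (418 bp) and Hspa1b (-438 bp) inside it, and Hsp90ab1 (5787 bp) outside.

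**Figure D3:**
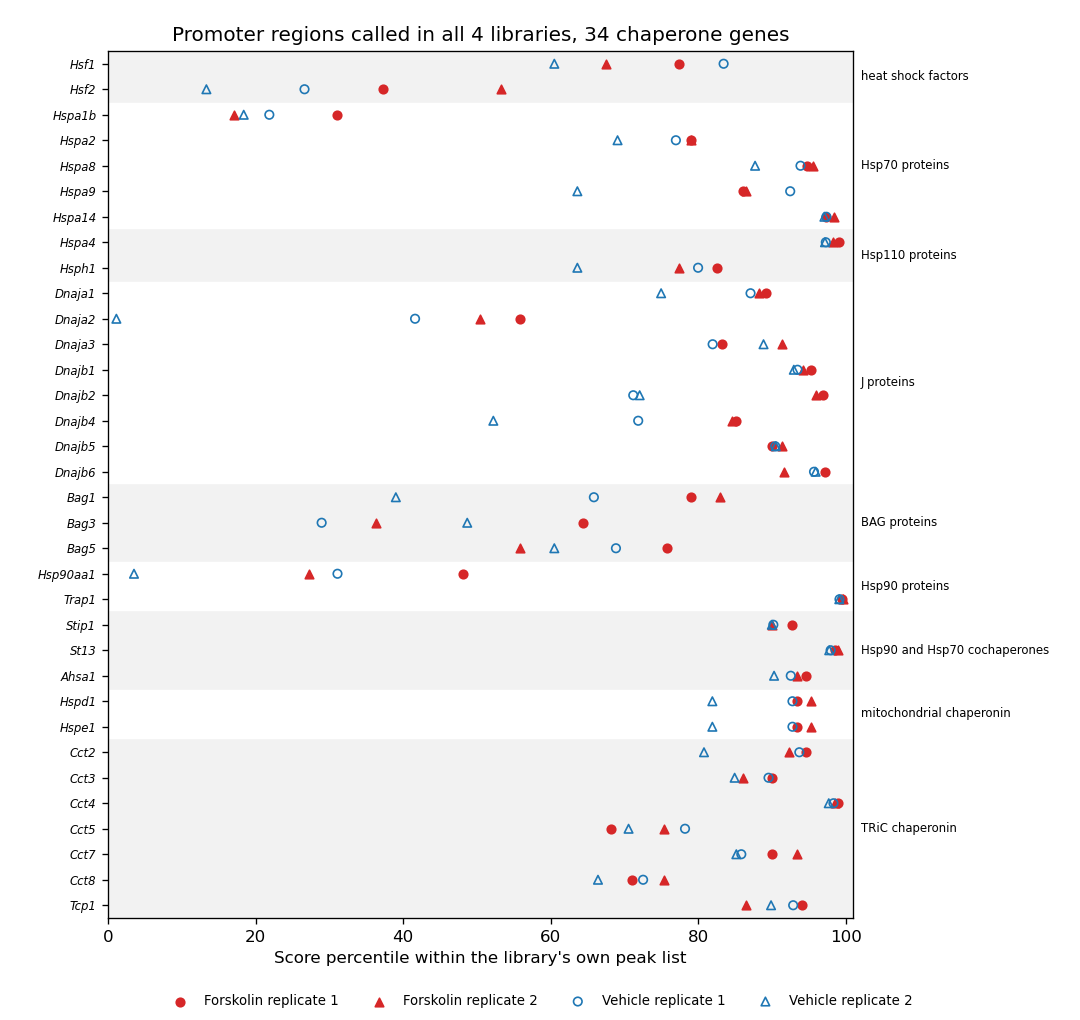
Score percentile of the promoter region within each library's own peak list (x axis, percent) for the 34 members with a region of all 4 libraries within 1 kb, grouped by role. Filled red symbols are forskolin and open blue symbols vehicle libraries, circles replicate 1 and triangles replicate 2. Trap1, St13, Cct4, Hspa4 and Hspa14 lie above 97 in all libraries, and Hspa1b, Hsp90aa1 and Hsf2 lie low.

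The number of members with a peak within 1 kb differed little between treatments. It was 36 and 37 in the forskolin libraries, against 36 and 35 in the vehicle libraries (means 36.5 ± 0.707 and 35.5 ± 0.707, SD, n = 2 each; exact two-sided permutation test p = 0.667, where 0.333 is the smallest p the design allows). The share of all genes with such a peak was 43.2% and 39.2% in forskolin libraries, against 38.6% and 32.4% in vehicle libraries. With lists cut to equal length, the difference of the members' means was -2.0 in place of 1.0 (exact permutation p = 0.333).

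Forskolin-only regions were found within 10 kb of 7 of the 40 members (17.5%), beside 8.88% of all genes. Among those with a promoter region of all libraries it was 5 of 34 members (14.7%), beside 8.29% of such genes. The 7 were Hspa1a, Hspa1b, Hspa9, Hsph1, Hsp90ab1, Dnaja3 and Bag3, with 7 distinct regions, since Hspa1a and Hspa1b shared 1 and Hsp90ab1 had 2. Within 1 kb the member was Hsp90ab1 alone, or 1 of 40, beside 3.11% of genes. Vehicle-only regions lay within 1 kb of 0 members (beside 0.247%), within 10 kb of 0 (beside 0.414%) and within 100 kb of 1, Hsf1, at 60434 bp (beside 2.07%). The vehicle lists were shorter than the forskolin lists. With lists cut to equal length, 6 members had a forskolin-only region within 10 kb (beside 2.57% of genes) and 1 a vehicle-only region (beside 4.49%). Without forskolin replicate 2 the forskolin-only count was 11 (beside 17.6% of genes), and without vehicle replicate 2 the vehicle-only count was 7 (beside 2.85%). Without forskolin replicate 1 the vehicle-only count within 10 kb was 2 (beside 1.61%). Within 100 kb, leaving out forskolin replicate 1 gave 5 members with a vehicle-only region (beside 7.6%), leaving out vehicle replicate 1 gave 3 (beside 4.55%) and leaving out vehicle replicate 2 gave 11 (beside 12.1%).

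Bag3, an exchange factor that directs clients to autophagy, had the highest-ranked of these regions by its lower percentile, in an intron 6294 bp from the start (chr7:135673226-135673555). It stood at 91.7 and 85.1 in the 2 forskolin libraries, with no call in vehicle libraries, and by the lower value it was at or above 96.3% of all forskolin-only regions. The Bag3 promoter region (chr7:135667035-135667479, exon, 160 bp) was lower and mixed, at 64.4 and 36.4 in forskolin libraries, against 29.0 and 48.7 in vehicle libraries. Hsph1 had a forskolin-only region at -5528 bp (chr5:150444310-150444648, intergenic), at 91.8 and 75.3. The Hsph1 promoter region (chr5:150438956-150439493, intergenic) stood at 82.6 and 77.4 in forskolin libraries, against 80.0 and 63.6 in vehicle libraries.

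Both distal regions, of Bag3 and Hsph1, held a CRE core and an AP-1 site within 100 bp of the centre. Of the 7 forskolin-only regions within 10 kb of a member, 57.1% held the core and 28.6% the AP-1 site. Among all 5187 forskolin-only regions, 38.6% held the core and 21.8% the AP-1 site, and the share with both was not computed. The stretches are printed because these were the 2 forskolin-only regions within 10 kb that held both motifs, with those letters in capitals, 5′ to 3′ on the gene's strand in build mm9 (chr7:135673401-135673503, plus strand, and chr5:150444474-150444544, minus strand).
Bag3: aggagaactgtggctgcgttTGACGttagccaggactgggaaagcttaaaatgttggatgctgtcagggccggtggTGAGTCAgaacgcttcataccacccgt
Hsph1: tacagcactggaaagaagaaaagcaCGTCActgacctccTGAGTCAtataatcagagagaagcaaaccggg

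The remaining forskolin-only regions within 10 kb had other genes near them or lower ranks. Dnaja3, a mitochondrial J protein, had one in an intron 3820 bp from the gene's 5′ end (chr16:4643607-4644010), at 81.0 and 82.3. It lay nearer to Coro7, at 2907 bp, and the Dnaja3 promoter region was at an internal start 43963 bp from that end, at 83.3 and 91.4 in forskolin libraries, against 81.9 and 88.8 in vehicle libraries. Hspa9 had one at -4208 bp (chr18:35118058-35118380, intergenic), at 74.6 and 65.9. That between Hspa1a and Hspa1b (chr17:35104454-35104777, intergenic) had 62.9 and 22.2 and held a CRE core. It lay nearer to Gm20481, at 2241 bp. The distal one of Hsp90ab1, at -8239 bp (chr17:45718237-45718680), had 28.0 and 55.9 and lay nearer to Slc29a1. With the top 50% of each list, and with equal lists, Hspa1a and Hspa1b had no forskolin-only region within 10 kb. Hspa9, Hsph1, Hsp90ab1, Dnaja3 and Bag3 had at least 1 under every alternative run, which for a library left out holds by construction. For Hsp90ab1 it was not always the same region. Joining peaks within 500 bp left only the distal one, and the top 50% and equal lists left only the intronic one near its 5′ end.

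Within 100 kb, forskolin-only regions lay near 26 of the 40 members (65%), beside 39.7% of all genes. Among those with a promoter region of all libraries it was 21 of 34 members (61.8%), beside 49.5% of such genes. Of the 36 distinct regions, 30 were nearest to a gene outside the set, for example 1144 bp from Egr1, 244 bp from Egr4 and 133 bp from Ptprn. The 6 nearest to a member were those of Hsp90ab1, Hspa9, Hsph1, Dnajb1 and, with 2, Bag3. The Dnajb1 region, 11434 bp downstream (chr8:86143703-86144069, intergenic), was the 1 of the 36 with a full CRE, at 40.5 and 55.9. The highest-ranked lay at -95552 bp from Dnaja1 (chr4:40573467-40573794, intergenic), at 97.4 and 90.5, and its nearest gene was Aptx at 67909 bp. With equal lists the count was 12 members (30%), beside 14.9% of genes.

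To compare treatments, ranks were taken among the 8930 regions called in every library, because the lists differ in length. On this shared scale 3 of the 33 chaperone promoter regions ranked higher in both forskolin than in both vehicle libraries, beside 8.16% of all promoter regions and 18.4% of all 8930 regions. In the other direction 13 ranked lower in both, beside 37.6% of promoter regions and 31.3% of all regions, and 17 overlapped. The 13 were Ahsa1, Bag5, Cct3, Cct4, Cct5, Dnajb1, Dnajb5, Dnajb6, Hsf1, Hspa1b, Hspa2, Stip1 and Tcp1. The median difference was -1.88 percentile points, beside -3.76 over all promoter regions. On percentiles of the whole lists, 16 ranked higher and 0 lower, so the direction for the set depended on the scale. The share over all promoter regions was not computed on that scale. The whole-list medians of all promoter regions were 78.8 and 73.1 in forskolin libraries, against 75.4 and 64.7 in vehicle libraries. These medians overlapped between treatments, with forskolin replicate 2 below vehicle replicate 1.

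Dnajb2, Bag1 and Dnajb4 ranked higher with forskolin on both scales, and on the shared scale also without any 1 library. The latter follows almost by construction, because they were picked for ranks that did not overlap. Dnajb2, a J protein that passes ubiquitylated clients to the proteasome, had its region in an exon 418 bp from the start (chr1:75233273-75233642). Its shared percentiles were 91.9 and 91.9 in forskolin libraries, against 54.9 and 68.9 in vehicle libraries. These did not overlap, and the difference of the means, 30.0 points, was reached by 0.936% of all promoter regions. Upward differences ran wider over all 8930 regions, and the share of these that reached 30.0 points was not computed. The exact permutation p was 0.333, the smallest possible, which any region without overlap has in this design. On its own lists it stood at 96.9 and 96.0 in forskolin libraries, against 71.2 and 72.1 in vehicle libraries.

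Bag1, an exchange factor that couples Hsp70 to the proteasome, had shared percentiles of 53.3 and 68.6 in forskolin libraries, against 47.4 and 34.4 in vehicle libraries, a difference of 20.1 points (chr4:40895297-40895654, exon, -162 bp). Dnajb4, another J protein, had 65.4 and 71.5 in forskolin libraries, against 55.8 and 47.6 in vehicle libraries, a difference of 16.7 points. This Dnajb4 region lay at an internal start, in an intron 16405 bp from the 5′ end (chr3:151856642-151857033). The region at its 5′ end, shared with Fubp1, was also called in all libraries, at list percentiles of 91.8 and 81.7 in forskolin libraries, against 94.3 and 85.9 in vehicle libraries. Both Bag1 and Dnajb4 had p = 0.333 (exact permutation test), again given by the lack of overlap. Without vehicle replicate 2 their differences were 9.0 and 8.4 points. Without forskolin replicate 2 that of Bag1 was 12.4. The Dnajb2 and Dnajb4 regions held a CRE core, shown here in capitals because these regions differed most among those with the core (5′ to 3′ on the gene's strand, mm9, chr1:75233419-75233473, plus strand, and chr3:151856824-151856878, minus strand).
Dnajb2: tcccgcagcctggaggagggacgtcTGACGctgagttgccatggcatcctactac
Dnajb4: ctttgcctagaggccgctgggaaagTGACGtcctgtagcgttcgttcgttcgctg

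Among the regions ranked lower with forskolin, Cct5, Hsf1 and Bag5 differed most. Cct5 (chr15:31531209-31531842, exon, -31 bp) had shared percentiles of 34.0 and 56.9 in forskolin libraries, against 65.3 and 67.3 in vehicle libraries, a difference of -20.8 points that 8.81% of promoter regions reached or passed. Hsf1 had 50.4 and 45.6 in forskolin libraries, against 73.4 and 56.4 in vehicle libraries, a difference of -16.9. Bag5 (chr12:112951324-112951694, exon, -41 bp), a protein with several BAG domains, had 47.2 and 31.6 in forskolin libraries, against 51.6 and 56.4 in vehicle libraries, a difference of -14.6. None of these overlapped between treatments. The TRiC subunits Tcp1 (chr17:13108856-13109182, exon, -176 bp) and Cct3 (chr3:88100823-88101186, intergenic, -33 bp) came next. Tcp1 had 84.9 and 74.5 in forskolin libraries, against 88.4 and 88.5 in vehicle libraries, a difference of -8.8. Cct3 had 75.9 and 73.8 in forskolin libraries, against 83.1 and 83.0 in vehicle libraries, a difference of -8.2. Each of the 5 had p = 0.333 in the exact permutation test, which follows from their selection for ranks that did not overlap. On whole lists the differences were -2.7 for Cct5, -1.2 for Tcp1, 0.5 for Hsf1, 1.1 for Bag5 and 0.8 for Cct3. Cct5 differed by -9.4 without forskolin replicate 1 and by -31.3 without forskolin replicate 2, and it had no region of all remaining libraries without vehicle replicate 2. When peaks had to share at least 50% of the shorter to be merged, Cct5 had no region of all 4 libraries within 1 kb. Hsf1 differed by -8.7 without vehicle replicate 1. Without forskolin replicate 1 Bag5 differed by -22.4 and Tcp1 by -13.9, and without forskolin replicate 2 they differed by -6.5 and -3.4.

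**Figure D4:**
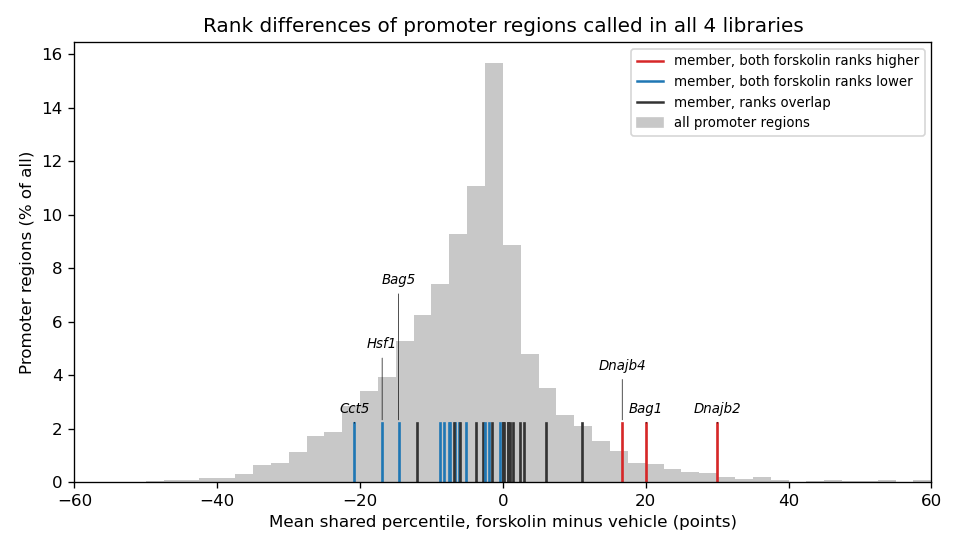
Mean shared percentile in forskolin minus that in vehicle libraries (x axis, points). Grey bars give the share of all 5984 promoter regions (percent, y axis; values beyond the axis are in the end bars), and lines of arbitrary height mark the 33 chaperone regions, red where both forskolin ranks were higher, blue where both were lower and dark grey where they overlapped. Dnajb2 at 30.0 lies farthest right of the chaperone regions and Cct5 at -20.8 farthest left.

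Several chaperone promoters were divergent. Starts on both strands lay within 1 kb of 12 of the 33 regions (36.4%), beside 14.5% of all promoter regions. The starts of Hspd1 and Hspe1 were 71 bp apart, those of Tcp1 and the mitochondrial ribosomal gene Mrpl18 16 bp, those of Cct5 and Fam173b 5 bp, those of Bag1 and Chmp5 126 bp, and those of Hsf1 and Bop1 166 bp. Other pairs were St13 with Xpnpep3 (61 bp), Hspa14 with Cdnf (216 bp), Bag5 with 2810002N01Rik (4 bp) and Cct3 with 1700021C14Rik (117 bp). The rest were Dnajb6 with Gm5129 (4 bp), Cct7 with 1700040I03Rik (222 bp) and Ahsa1 with Vipar (460 bp). A region at such a pair cannot be assigned to either gene. Among these are Bag1, which ranked higher with forskolin, and Cct5, Hsf1, Bag5, Tcp1 and Cct3, which differed most among the lower.

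Other chaperone genes were counted in the same way. Of 83 further cochaperones, J proteins, prefoldins and mitochondrial proteases, 53 (63.9%) had a promoter region of all 4 libraries and 5 (6.02%) a forskolin-only region within 10 kb. These 5 were Hspa1l, which lies beside Hspa1a and shares its region, Dnajc12, Dnajc17, Fkbp5 and Tomm34, with percentiles from 28.0 to 68.6 in forskolin replicate 1 and from 17.1 to 36.4 in forskolin replicate 2. Of 25 chaperones and folding enzymes of the endoplasmic reticulum, 20 (80%) had a promoter region of all 4 libraries and 3 (12%) a forskolin-only region within 10 kb. These 3 were Hsp90b1, the Hsp90 of that compartment, at 86.8 and 71.8 in the forskolin libraries, and Dnajb11 and P4hb, each at 29.5 and 12.4. The median of the mean percentile was 86.4 for the 33 chaperone promoter regions, 75.1 for those of the further network, 89.2 for those of the endoplasmic reticulum and 71.1 for all promoter regions. The lists were not tested against each other.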

How the data were processed

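Phospho-CREB immunoprecipitates of 2 forskolin-treated and 2 vehicle-treated MC3T3-E1 samples were sequenced, and samples were grouped by title. The authors deposited 1 peak list per library, with a score of unstated scale for each peak. Read totals are not in the lists, so depth is known only through score steps. Bowtie, HOMER and build mm9 come from the submitters' processing notes, and no version or calling threshold was found there. Peaks were merged at 1 bp of overlap, a region took its highest score per list, and regions were assigned to protein-coding genes of GENCODE M1 on NCBIM37 (mm9) within 1, 10 and 100 kb of a start. Merging was checked on 4000 simulated regions, and 4000 fell into the right class. These regions lay far apart and their peaks overlapped, so adjoining or split peaks, as at Hsp90ab1, were not checked. Alternatives were other merging rules, the top 50% of lists, lists of equal length, 1 start per gene, distance from region edges, mean scores, whole-list percentiles, other motif windows and each library left out.

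Full values were given for members with treatment-specific regions within 10 kb, without a promoter region, with a full CRE, in the 5 highest or lowest by rank, in the 5 widest non-overlapping differences each way, and for 12 main chaperones. Members and lists were chosen with earlier results of these data known. Of 84 further network genes, 83 matched the annotation. Python 3.11.15, numpy 2.4.6, scipy 1.17.1, pysam 0.24.0 and matplotlib 3.10.9 were used.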

Additional observations from a re-analysis of the deposited data

How the results depend on the processing

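Over the alternatives, members with a region of all 4 libraries numbered 28 to 35 within 1 kb (34 reported) and 30 to 39 within 10 kb (36 reported). Members with a forskolin-only region within 1 kb (1 reported) were 2 when peaks had to share 50% of the shorter, 0 when peaks within 500 bp were joined, 2 with the top 50% of each list and 1 to 3 without 1 library. Within 10 kb (7 reported) they were 8 to 11 without 1 library (beside 10.1% to 17.6% of all genes). Within 100 kb (26 reported) they were 12 with equal lists (beside 14.9%). Members with a vehicle-only region within 10 kb (0 reported) were 1 with equal lists (beside 4.49%). They were 0 to 7 without 1 library (beside 0.715% to 2.85%). Within 100 kb (1 reported) they were 2 with the 50% rule (beside 2.65%), 0 with the top 50% (beside 1.21%) and 10 with equal lists (beside 17.8%). Without 1 library they were 1 to 11 (beside 3.5% to 12.1%). In both windows the highest vehicle-only count without 1 library was that without vehicle replicate 2. Dropping a library makes these classes easier to meet by construction. Promoter regions ranked higher (3 reported) were 16 on whole-list percentiles and 4 to 10 without 1 library, and those ranked lower (13 reported) were 0 and 13 to 20. Bag1, Dnajb2 and Dnajb4 were among the higher ones each time, and without 1 library 12 or 13 of the 13 were among the lower ones. Without 1 library this follows almost by construction, because ranks that do not overlap mostly stay apart. For ranks, regions of all 4 libraries and forskolin-only regions within 1 kb, shares over all genes or regions were not computed under alternatives. Whole-list percentiles turned Hsf1, Bag5 and Cct3 to 0.5, 1.1 and 0.8. A 50 bp motif window left the heat shock element in 1 region. The difference in members with a peak within 1 kb (1.0 reported) was -2.0 with equal lists, 3.0 with the top 50% and 0.5 to 1.5 without 1 library. With the replicate number as a block it was 1.0 (exact sign-flip p = 1), and replicate differences in shared rank correlated at 0.13 between treatments across 8930 regions, which with 2 pairs does not establish a pairing. Of 124 single-gene values under an alternative, 103 stayed close, 18 moved and 3 turned sign; causes were not tested.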
